A study of Mus musculus with 6 samples.

Results

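The genes described are the nuclear-encoded subunits of the mitochondrial respiratory chain and the ATP synthase. They were taken from a table of 43346 genes as protein-coding genes whose symbols begin with Ndufa, Ndufb, Ndufc, Ndufs, Ndufv, Uqcr, Cox4 to Cox8 or Atp5, together with Sdha to Sdhd, Cyc1 and Cycs. That rule gave 95 genes: 46 with an Nduf symbol, 4 of complex II, 9 of complex III, 1 for cytochrome c, 18 of complex IV and 17 of complex V. Of the Nduf genes, 8 are Ndufaf genes, whose products help to assemble complex I and are not part of it, so they were counted apart and 87 genes were treated as subunits. The Atp5 pattern also takes in Atp5s, which encodes coupling factor B. Ndufa4 and Ndufa4l2 were grouped by name with complex I, although the Ndufa4 product is known as a component of complex IV.

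Expression was measured in C57BL/6 mouse embryonic fibroblasts (MEFs), primary cells from embryos that divide for a limited time, at passage 9. The erastin group had 24 h with 3 µM erastin, and the control group had the solvent DMSO. Erastin blocks the cystine/glutamate exchanger of the plasma membrane and is used to bring about ferroptosis, cell death through iron-dependent lipid peroxidation. It is also known to bind the voltage-dependent anion channels of the outer mitochondrial membrane. Each group had 3 libraries of total RNA from which ribosomal RNA had been removed. The study was done in triplicate per its labels, which do not say that the 3 came from separate cultures, so p-values measure the spread between these libraries. All 10 fibroblast markers checked were detected in every library.

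The respiratory chain passes electrons from NADH (complex I) and succinate (complex II) through coenzyme Q to complex III, then through cytochrome c to complex IV, which reduces oxygen. Complexes I, III and IV pump protons across the inner mitochondrial membrane, and complex V, the ATP synthase, makes ATP as protons flow back. Complex II is encoded wholly in the nucleus, while the other complexes combine nuclear-encoded proteins, imported from the cytosol, with a few subunits made inside mitochondria from mitochondrial DNA (mtDNA). Many of the nuclear genes share promoter motifs for the factors NRF1 and GABP, an ETS-family factor.

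Promoter sequence is shown for 5 genes, chosen because they differ in direction of change and in motif content. RefSeq promoter windows (assembly GRCm38.p6) were matched for 77 of the 95 genes, and the 250 bases before the annotated start were searched on both strands. A gene with several windows was counted as holding a motif when any of them matched. Among the motifs searched were NRF1 (GCGCA, any base, then GCGC), ETS (CCGGAAG), YY1 (AAGATGGC) and the cyclic AMP response element CRE (TGACGTCA). Capitals mark matches to these 4, and bases that overlap exons of protein-coding genes were left out. Cycs (chr6:50566570-50566819, minus strand, a window that overlaps an exon of the annotated gene 5430402O13Rik) and Ndufaf1 (chr2:119662835-119663084, minus strand) rose with erastin. Cox6a1 (chr5:115348982-115349208, minus strand), Uqcr11 (chr10:80406831-80407071, minus strand) and Ndufa3 (chr7:3617123-3617372, plus strand) fell.
Cycs: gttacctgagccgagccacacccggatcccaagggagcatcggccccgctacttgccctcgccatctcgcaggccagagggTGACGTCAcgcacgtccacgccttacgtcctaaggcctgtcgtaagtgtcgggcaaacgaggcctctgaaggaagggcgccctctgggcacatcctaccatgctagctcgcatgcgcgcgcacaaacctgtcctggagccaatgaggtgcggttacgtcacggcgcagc
Ndufaf1: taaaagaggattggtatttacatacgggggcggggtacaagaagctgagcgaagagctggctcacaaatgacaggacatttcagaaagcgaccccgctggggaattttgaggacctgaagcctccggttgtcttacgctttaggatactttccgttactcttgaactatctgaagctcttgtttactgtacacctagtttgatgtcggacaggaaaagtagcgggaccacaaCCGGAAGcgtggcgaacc
Cox6a1: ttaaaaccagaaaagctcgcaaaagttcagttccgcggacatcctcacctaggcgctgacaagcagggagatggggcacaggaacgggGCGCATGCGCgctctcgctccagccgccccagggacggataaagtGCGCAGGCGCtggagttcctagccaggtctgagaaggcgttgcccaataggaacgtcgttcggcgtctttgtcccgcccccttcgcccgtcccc
Uqcr11: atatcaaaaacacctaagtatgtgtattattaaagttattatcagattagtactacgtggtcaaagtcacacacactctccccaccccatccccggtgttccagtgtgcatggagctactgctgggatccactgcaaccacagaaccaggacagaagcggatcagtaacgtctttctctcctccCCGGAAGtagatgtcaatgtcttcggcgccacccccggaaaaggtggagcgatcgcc
Ndufa3: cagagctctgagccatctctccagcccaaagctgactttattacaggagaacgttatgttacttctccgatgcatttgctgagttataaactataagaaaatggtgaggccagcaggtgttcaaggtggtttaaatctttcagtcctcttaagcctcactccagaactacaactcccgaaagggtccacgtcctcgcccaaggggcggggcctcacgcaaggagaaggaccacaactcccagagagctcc
The Cycs stretch holds a CRE match and those of Ndufaf1 and Uqcr11 an ETS match. The Cox6a1 stretch holds a pair of NRF1 matches, and an ETS match of the Cox6a1 window lies in its omitted bases. The Ndufa3 stretch holds no match to the 4 motifs.

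Among the 70 subunit genes with a window, 13 (18.6%) held an NRF1 match, compared with 4.23% of all 27025 genes in the RefSeq table. That table was not limited to genes tested here. An ETS match stood in 12 (17.1%, against 7.83%), a CRE match in 5 (7.14%, against 1.77%) and a YY1 match in 1 (1.43%, against 1.83%). NRF1 matches were found in 7 of the 29 subunit genes with a window that fell, among them Sdhd, Sdha, Atp5k and Atp5g2, and in 6 of the 35 that did not pass the test. For ETS the counts were 6 of 29 and 6 of 35. Only 3 subunit genes that rose had a window. Cycs and Uqcrfs1 carried a CRE match there, and Ndufab1 carried none of the 4 motifs. A further element, TGATGNAA, the core recognised by C/EBP-ATF dimers such as those of ATF4, matched in 0 of the 70 genes and in 3.91% of all genes. Also searched, with N for any base, were TGACNNNGC and GGGCGG. The first matched in 6 of the 70 genes (8.57%, against 11.5%) and the second in 26 (37.1%, against 35.4%). These matches describe letters in the windows, and binding was not measured.

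Total counts per library ran from 13333911 to 20509970, at which 3 counts, taken as the smallest detectable level, correspond to 0.14 to 0.23 CPM (read counts scaled to a common library size). Of all 14000 genes with enough reads to test, 21.5% were lower and 21.6% higher with erastin at an adjusted p under 0.05 (edgeR quasi-likelihood test with Benjamini-Hochberg adjustment over all genes tested). Over all genes the log2 fold changes had a median of -0.0014. Both directions together made up 43.1%. Levels of the 10 fibroblast markers moved with the groups too: 8 were lower with erastin, and their summed level was 35802 to 38800 CPM in DMSO and 25692 to 27127 CPM with erastin. The 4 endothelial markers summed to 4.66 to 7.10 CPM in DMSO and 13.2 to 16.4 CPM with erastin. Of these Tek and Kdr were higher (log2 fold changes 1.45 and 1.38, edgeR adjusted p = 0.0012 and 0.0017), while Pecam1 and Cdh5 had too few reads to test. The 5 macrophage markers were all detected in every library and 0 of them were called. They summed to 11.2 to 16.4 CPM in DMSO and 10.5 to 19.3 CPM with erastin. The 4 neuronal markers summed to 56.3 to 81.0 CPM in DMSO and 36.8 to 45.7 CPM with erastin. Only 1 of these 4 had reads in every library, and only 1 had enough reads to test. The tested marker was lower, with a log2 fold change of -0.735. The part of these shifts in the values below was not tested. In bulk RNA, fewer cells of a type and less RNA per cell cannot be told apart.

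Of the 87 subunit genes, 83 passed the filter on low counts. With erastin 36 of these 83 were lower (43.4%, beside 21.5% of all genes) and 5 were higher (6.02%, beside 21.6%), and their median log2 fold change was -0.23. The changes were small: only Cox6a2, at 2.39, and Cox6b2, at -1.16, reached an absolute log2 fold change of 1. In 42 of the 83 all 3 erastin libraries lay below all 3 DMSO libraries, and in 7 they lay above. Over all genes tested these shares were 25.8% and 26.7%, or 52.5% in either direction. The 4 untested genes were all of complex IV. Cox8b, Cox8c and Cox7b2, whose products are tissue-restricted isoforms, had 0 reads in every library, which allows at most the 3-count level, and the muscle isoform Cox7a1 had between 0 and 10 reads.

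**Figure D1:**
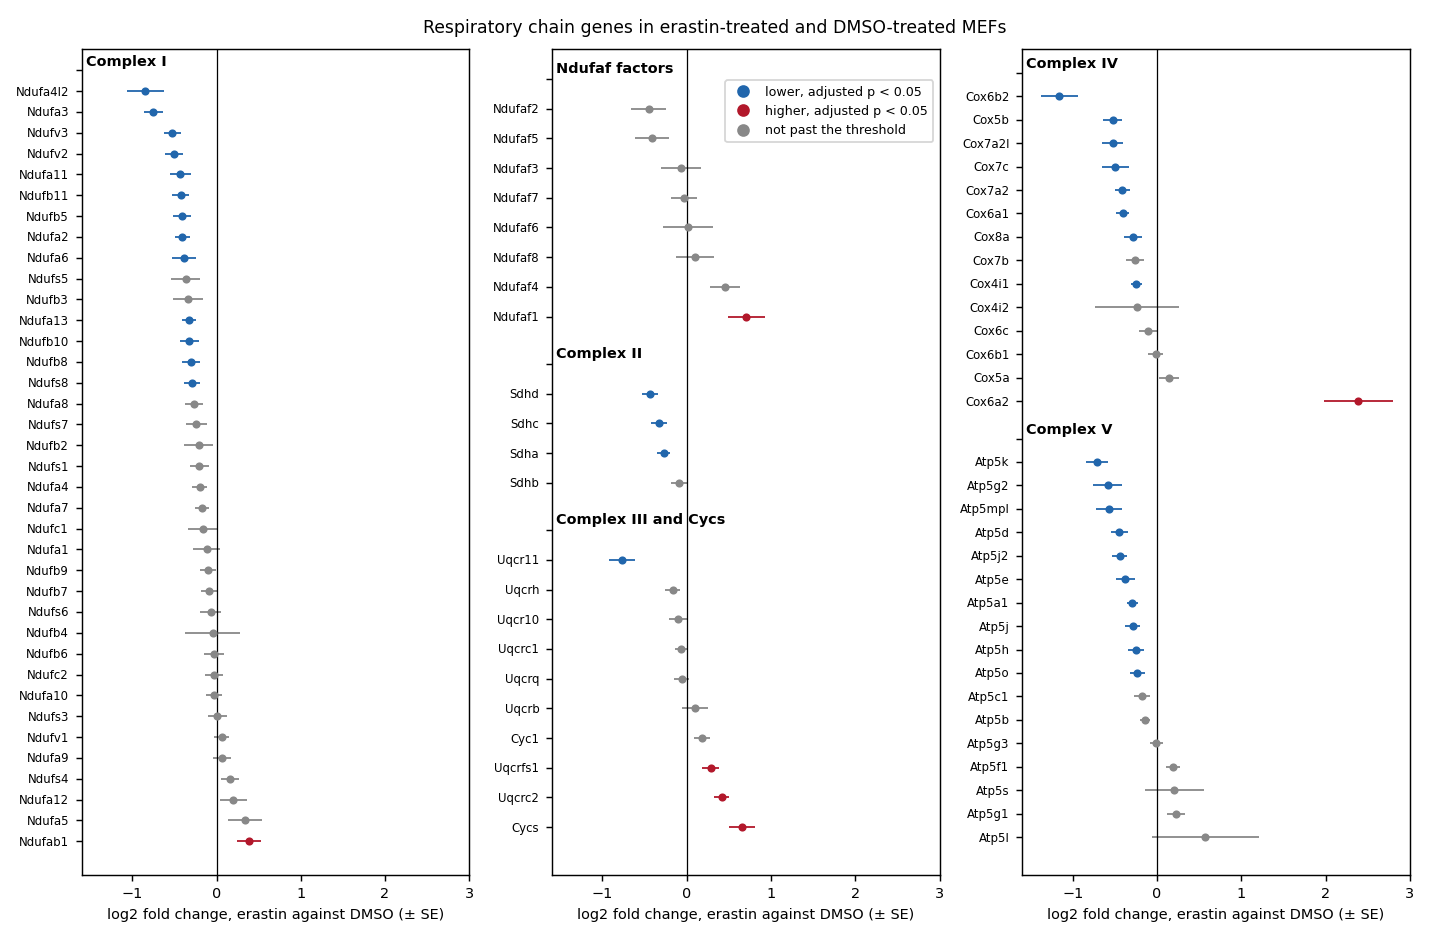
Log2 fold change of 90 of the 91 tested genes, erastin against DMSO (horizontal axis, points with SE, 3 libraries per group), grouped by complex; colour shows the call at an adjusted p under 0.05. Most subunits lie left of 0, with medians of -0.21 for complex I, -0.27 for complex IV and -0.25 for complex V, while Cycs, Uqcrc2 and Cox6a2 lie to the right.

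A summed level was also computed for each library, which weights abundant transcripts most. The 87 subunit genes together held 6699, 6552 and 6279 CPM in DMSO replicates 1, 2 and 3 and 5517, 5733 and 5708 CPM in erastin replicates 1, 2 and 3. The groups did not overlap, and the erastin mean was 0.868 of the DMSO mean. Complexes I, II, IV and V were each lower in all 3 erastin libraries, at 0.844, 0.826, 0.825 and 0.867 of DMSO. Complex III was the exception, with 722 ± 41.7 CPM in DMSO and 728 ± 3.41 CPM with erastin (SD, n = 3), and its groups overlapped. Whether complex III differed from the other complexes was not tested.

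Subunit genes tend to be short, and transcript length moved with the fold change across the whole table. The longest annotated protein-coding transcript had a median of 908 nt in the 83 subunit genes and 3243 nt in all 12539 protein-coding genes tested. Among all protein-coding genes the median log2 fold change was -0.57 up to 500 nt (59 genes), -0.23 above 500 and up to 1000 nt (529 genes), -0.11 up to 2000 nt, 0.013 up to 4000 nt and 0.090 above 4000 nt. In subunit genes of the same lengths the medians were -0.37 for 5 genes up to 500 nt, -0.25 for 42 genes above that and up to 1000 nt, and -0.12 for 26 genes up to 2000 nt. The next 8 subunit genes, up to 4000 nt, had a median of -0.24. Shares called lower were 60% of subunit genes and 59.3% of all protein-coding genes up to 500 nt. Above that they were 47.6% and 36.1% up to 1000 nt, and 34.6% and 25.7% up to 2000 nt. They were 50% and 21.7% up to 4000 nt, and 0% (of 2 subunit genes) and 20.4% above 4000 nt.

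When the dependence of counts on length and GC content was removed as a smooth curve in each library, 20 of the 83 subunit genes were lower and 6 higher, and the median was -0.085. In that fit 21.2% of all 14000 genes were lower, close to the share of the subunit genes, and 20% were higher. Calls in both fits were made for 18 subunits in the lower and 4 in the higher direction. By complex, 9 genes were lower in complex I, 3 in complex II, 0 in complex III, 5 in complex IV and 3 in complex V, and 4 were higher in complex III. The part of transcript length in the lower levels of short subunit genes was not tested.

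**Figure D2:**
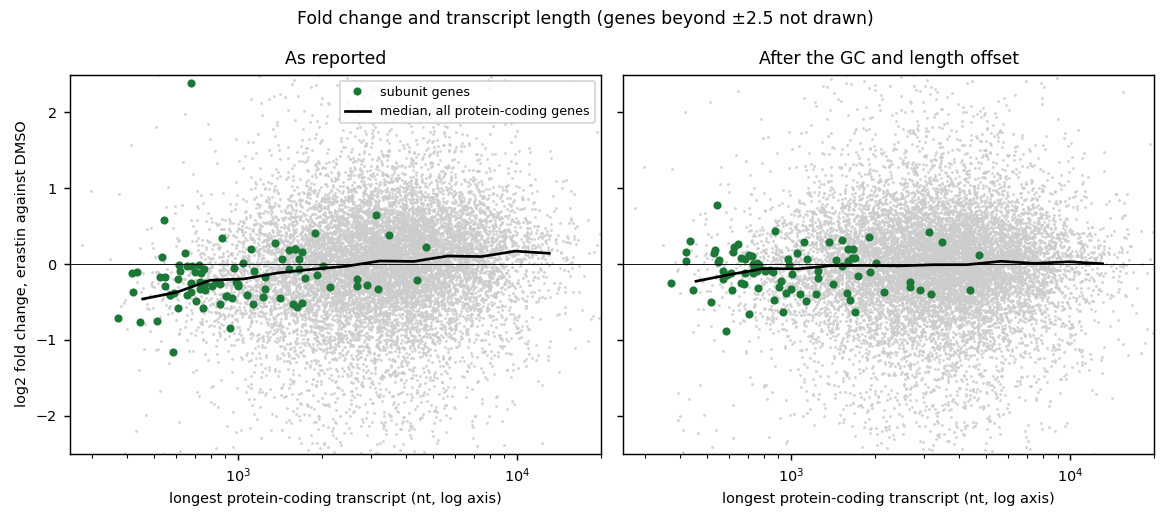
Log2 fold change (vertical axis) against the length of the longest protein-coding transcript (horizontal log axis, nt) for protein-coding genes in grey and subunit genes in green, with the median of all genes in bins of 20 or more as a line. Without the offset the line falls below 0 for short transcripts, where most subunit genes lie; with the offset the subunit median is -0.085.

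Complex I, NADH dehydrogenase, is the largest complex, built from catalytic core subunits and many accessory ones. Of its 38 tested nuclear genes 14 fell (36.8%, beside 21.5% of all genes) and 1 rose (2.63%, beside 21.6%). Ndufv2, a core subunit that carries an iron-sulfur cluster, was at 50.7, 51.3 and 59.5 CPM in DMSO and 40.6, 37.3 and 35.5 CPM in erastin replicates 1, 2 and 3. Every erastin library lay below every DMSO library, and the log2 fold change was -0.51 (SE 0.10, edgeR adjusted p = 0.0011). Ndufs8, a core subunit that also carries iron-sulfur clusters, had a log2 fold change of -0.29 (SE 0.10), and of -0.13 with the length offset, where it did not pass (edgeR adjusted p = 0.27). The core subunits Ndufs1, Ndufs3, Ndufs7 and Ndufv1 did not pass, with log2 fold changes from -0.24 to 0.060.

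Among accessory subunits, Ndufa3 (ENSMUSG00000035674.9, chr7:3617373-3620327) was at 68.9, 65.1 and 57.1 CPM in DMSO and 38.9, 41.9 and 32.9 CPM with erastin. The groups were far apart, and the log2 fold change was -0.75 (SE 0.11, edgeR adjusted p = 7.5e-05). Ndufv3, a small subunit of the NADH-oxidising module, was at 57.0, 64.6 and 57.5 CPM in DMSO and 38.3, 40.5 and 45.7 CPM with erastin, a log2 fold change of -0.53 (SE 0.10, edgeR adjusted p = 0.00074). Ndufa3, Ndufv3 and Ndufv2 were also lower with the length offset, at -0.50, -0.39 and -0.63.

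Ndufab1, the mitochondrial acyl carrier protein that also serves fatty acid and iron-sulfur cluster synthesis, was the 1 complex I subunit gene that rose. Its levels were 16.2, 16.5 and 16.3 CPM in DMSO and 21, 24 and 19.2 CPM with erastin, which did not overlap. The log2 fold change was 0.38 (SE 0.14, edgeR adjusted p = 0.042). That call held in only 1 of the 6 fits that left out a library, and with the offset the adjusted p was 0.13 (0.020 to 0.18 across the alternatives tried).

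Of the 15 calls in complex I, 7 were lost with the offset: that of Ndufab1 and 6 of the 14 lower ones. The 6 were Ndufa11, Ndufa2, Ndufa6, Ndufa13, Ndufb10 and Ndufs8, whose log2 fold changes with the offset were -0.23 to -0.092 (edgeR adjusted p = 0.12 to 0.47). Ndufs1 passed as lower only with it, at -0.30. Without erastin replicate 1, 9 of the 38 genes were called. In that fit 4802 of all 14278 genes tested were called, beside 6028 of 14000 with all libraries. Ndufb5 shares exon sequence on the opposite strand with Mrpl47, a gene for a mitochondrial ribosomal protein. Ndufb5 fell from 47.4 ± 4.94 to 35.6 ± 1.89 CPM and Mrpl47 rose from 12.3 ± 1.79 to 25.5 ± 2.61 CPM (SD, n = 3), with log2 fold changes of -0.41 (SE 0.11) and 1.06 (SE 0.16). The shared stretch makes up 12.3% of the exon bases of Ndufb5. Whether counting used the strand is not given in the sources used here. Reads in that stretch could therefore have been counted for either gene or for neither.

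Of the 8 assembly factor genes that share the Ndufaf name, 1 rose (12.5%, beside 21.6% of all genes) and 0 fell (beside 21.5%). Ndufaf1 (ENSMUSG00000027305.5, chr2:119655446-119662827), a chaperone for the membrane arm of complex I, was at 7.33, 5.49 and 8.72 CPM in DMSO and 11.4, 11.3 and 12.3 CPM with erastin. All erastin libraries lay above all DMSO libraries, with a log2 fold change of 0.71 (SE 0.21, edgeR adjusted p = 0.015). The call was lost without DMSO replicate 2, where the adjusted p was 0.068 and the log2 fold change 0.54. Ndufaf4 was also above DMSO in every erastin library, but its log2 fold change of 0.45 (SE 0.18) did not pass (edgeR adjusted p = 0.051).

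Complex II, succinate dehydrogenase, links the tricarboxylic acid (TCA) cycle to the chain. Of its 4 genes 3 fell (75%, beside 21.5% of all genes), and these 3 calls also passed with the length offset. Sdhd (ENSMUSG00000000171.4, chr9:50596357-50603812), a membrane anchor, was at 82.4, 78.2 and 72.1 CPM in DMSO and 59.9, 60.8 and 51.7 CPM with erastin (edgeR log2 fold change -0.43 ± 0.10 SE, adjusted p = 0.0019). Sdhc, the other membrane anchor, was at 117, 107 and 98.9 CPM and at 90.5, 87.5 and 78.2 CPM (edgeR log2 fold change -0.33 ± 0.09 SE, adjusted p = 0.0087). Neither pair of groups overlapped.

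The catalytic flavoprotein gene Sdha was at 163, 163 and 147 CPM in DMSO and 132, 122 and 138 CPM with erastin, again without overlap. Its log2 fold change was -0.28 (SE 0.08, edgeR adjusted p = 0.013). Leaving out a library lost this call in 2 of 6 fits (range of adjusted p over the alternatives 0.0013 to 0.069). Sdhb, the iron-sulfur subunit, stood at 86.8, 96.6 and 75.4 CPM in DMSO and 87.7, 74.6 and 81.0 CPM with erastin. These values overlapped, with a log2 fold change of -0.09 (SE 0.10, edgeR adjusted p = 0.51). Whether Sdhb differed from the other Sdh genes was not tested.

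**Figure D3:**
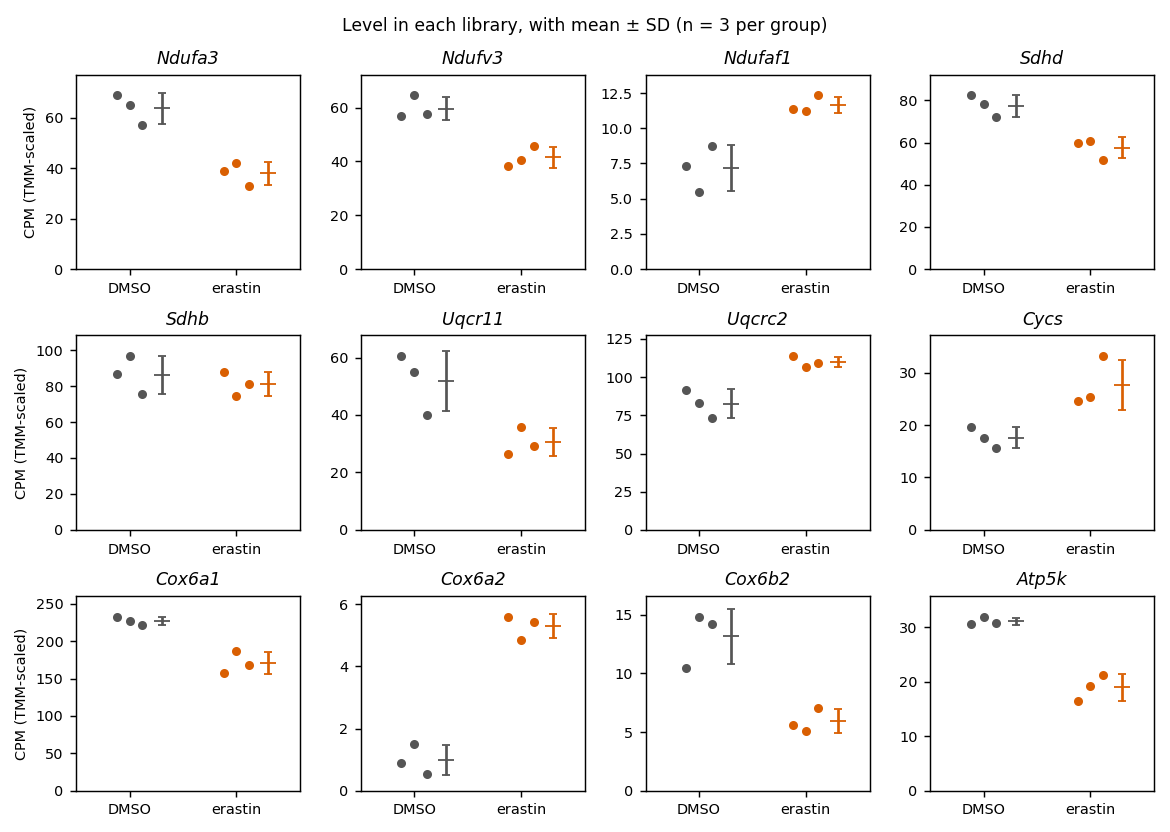
TMM-scaled CPM of 12 genes in each library (points; vertical axes start at 0) with the mean and SD of the 3 libraries of each group (bars). Erastin libraries lie below DMSO libraries for Ndufa3, Ndufv3, Sdhd, Uqcr11, Cox6a1, Cox6b2 and Atp5k and above them for Ndufaf1, Uqcrc2, Cycs and Cox6a2, while Sdhb overlaps.

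Complex III, the cytochrome bc1 complex, oxidises coenzyme Q and reduces cytochrome c. Of its 9 genes 2 rose (22.2%, beside 21.6% of all genes) and 1 fell (11.1%, beside 21.5%). The share that rose was near that of all genes. Uqcrc2 (ENSMUSG00000030884.7, chr7:120635176-120659524), a core protein of the matrix side, was at 91.8, 83.0 and 73.0 CPM in DMSO and 114, 107 and 110 CPM with erastin. Every erastin library was above every DMSO library (edgeR log2 fold change 0.41 ± 0.09 SE, adjusted p = 0.0022). Uqcrc2 shares 19.8% of its exon bases with Pdzd9 on the other strand, which had at most 0.419 CPM. Uqcrfs1, the Rieske iron-sulfur protein, was at 60.2, 59.5 and 51.7 CPM in DMSO and 73.7, 71.6 and 63.3 CPM with erastin. The groups did not overlap (edgeR log2 fold change 0.28 ± 0.10 SE, adjusted p = 0.029), but only 2 of 6 fits without a library kept the call.

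The other catalytic gene, Cyc1 for cytochrome c1, was at 84.3, 78.4 and 76.7 CPM in DMSO and 98.4, 92.6 and 80.3 CPM with erastin. Those values overlapped and the log2 fold change of 0.18 (SE 0.09) did not pass (edgeR adjusted p = 0.14). With the length offset it passed as higher, at 0.32 (edgeR adjusted p = 0.0091, 0.0066 to 0.45 across the alternatives tried). Uqcr11 (ENSMUSG00000020163.8, chr10:80402997-80406830), a small accessory subunit with a transcript of 445 nt, went the other way. It was at 60.4, 54.9 and 40.1 CPM in DMSO and 26.4, 35.9 and 29.1 CPM with erastin (edgeR log2 fold change -0.77 ± 0.15 SE, adjusted p = 0.00074). Uqcr11 did not pass with the offset, at -0.34 (edgeR adjusted p = 0.061, 1.0e-08 to 0.061 across the alternatives tried). With the offset from the shortest principal transcript it passed as lower, at -0.38 (edgeR adjusted p = 0.039).

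Cytochrome c carries electrons from complex III to complex IV and, once released from mitochondria, takes part in apoptosis. Its gene Cycs (ENSMUSG00000063694.5, chr6:50562563-50566538) was at 19.7, 17.6 and 15.6 CPM in DMSO and 24.6, 25.3 and 33.1 CPM with erastin. The lowest erastin library was above the highest DMSO library. The log2 fold change was 0.65 (SE 0.15, edgeR adjusted p = 0.0031), and 0.43 with the length offset, where the call also passed (edgeR adjusted p = 0.026, 0.00012 to 0.037 across the alternatives tried).

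Complex IV, cytochrome c oxidase, passes electrons to oxygen and has several subunits with tissue-specific isoforms. Of its 14 tested genes 8 fell (57.1%, beside 21.5% of all genes) and 1 rose (7.14%, beside 21.6%). Cox6a1 (ENSMUSG00000041697.8, chr5:115345642-115348981), the broadly expressed form of subunit VIa, was at 232, 227 and 221 CPM in DMSO and 157, 187 and 168 CPM with erastin, without overlap. Its log2 fold change was -0.41 (SE 0.08, edgeR adjusted p = 0.00072). With the offset it was -0.09 and did not pass (edgeR adjusted p = 0.40, 3.5e-06 to 0.40 across the alternatives tried).

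Cox6a2 (ENSMUSG00000030785.7, chr7:128205435-128206387), the form of subunit VIa known from heart and skeletal muscle, had 12, 27 and 7 reads in the DMSO libraries and 120, 81 and 105 reads in the erastin libraries. In CPM these were 0.907, 1.5 and 0.545 against 5.59, 4.85 and 5.44. The groups were far apart, with a log2 fold change of 2.39 (SE 0.41, edgeR adjusted p = 0.00026), the largest of the 91 genes. This call held in all 17 alternatives run, with log2 fold changes from 2.11 to 2.85.

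Cox6a2 was a minor form in both groups. Per kb of transcript, it made up 0.361% ± 0.174 of the Cox6a pair in DMSO and 2.56% ± 0.392 with erastin (SD, n = 3). Skeletal and cardiac muscle markers were near the detection limit in both groups. The 6 markers checked summed to 0.680 to 1.27 CPM in DMSO and 0.838 to 1.04 CPM with erastin, and 0 of them passed the filter on low counts. Cox6a2 shares 10.3% of its exon bases with Itgad on the other strand, and Itgad stood at no more than 0.467 CPM in any library.

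The isoform of subunit VIb moved in the other direction. Cox6b2 (ENSMUSG00000051811.10, chr7:4751792-4753094), known as the testis form, was at 10.5, 14.8 and 14.2 CPM in DMSO and 5.59, 5.09 and 7.05 CPM with erastin. The groups did not overlap, the log2 fold change was -1.16 (SE 0.22, edgeR adjusted p = 0.00059), and it was -0.88 with the offset, still past the threshold. The broadly expressed Cox6b1 was at 112, 112 and 109 CPM in DMSO and 100, 123 and 106 CPM with erastin, which overlapped (edgeR log2 fold change -0.02 ± 0.09 SE, adjusted p = 0.91). Per kb, Cox6b2 went from 13.6% ± 2.17 to 6.74% ± 1.47 of the Cox6b pair (SD, n = 3).

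Among the remaining isoform families, Cox4i1 was at 223, 210 and 211 CPM in DMSO and 181 CPM in each erastin library (edgeR log2 fold change -0.24 ± 0.07 SE, adjusted p = 0.011). It did not pass with the offset, at -0.02 (edgeR adjusted p = 0.89, 0.0016 to 0.89 across the alternatives tried). Its low-oxygen isoform Cox4i2 took 0.914% ± 0.339 of the Cox4 pair per kb in DMSO and 0.929% ± 0.267 with erastin (SD, n = 3). Cox7a2 and the supercomplex factor Cox7a2l, also called Scaf1, fell by 0.41 (SE 0.09) and 0.52 (SE 0.13) on the log2 scale. Cox7a2l kept its call with the offset and Cox7a2, at -0.24, did not (edgeR adjusted p = 0.056, 0.00023 to 0.056 across the alternatives tried). With the offset from the shortest principal transcript Cox7a2 passed as lower, at -0.28 (edgeR adjusted p = 0.028).

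Cox8a, the 1 form of subunit VIII with reads here, was at 168, 153 and 119 CPM in DMSO and 121, 118 and 122 CPM with erastin. The groups overlapped because DMSO replicate 3 was as low as the erastin libraries. Its log2 fold change of -0.29 (SE 0.11) passed narrowly (edgeR adjusted p = 0.040), in only 1 of 6 fits without a library, and was 0.055 with the offset. Ndufa4l2, a hypoxia-responsive relative of Ndufa4 counted here with complex I, was at 14.7, 13.4 and 22.3 CPM in DMSO and 7.77, 11.5 and 8.82 CPM with erastin (edgeR log2 fold change -0.84 ± 0.22 SE, adjusted p = 0.0064). Ndufa4 itself was at 70.9, 80.4 and 69.8 CPM and at 61.3, 67.0 and 64.3 CPM, a log2 fold change of -0.20 (SE 0.09) that did not pass (edgeR adjusted p = 0.089).

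Complex V, the ATP synthase, consists of the catalytic F1 head, the rotating c ring, a peripheral stalk and small membrane subunits. Of its 17 genes 10 fell (58.8%, beside 21.5% of all genes) and 0 rose (beside 21.6%). Calls covered 3 of 5 F1 genes, 1 of 3 c ring genes, 3 of 4 stalk genes and 3 of 4 membrane genes. Atp5b, for the catalytic beta subunit, had the highest level of all subunit genes, at 920, 850 and 885 CPM in DMSO and 797, 806 and 803 CPM with erastin. Although these groups did not overlap, its log2 fold change of -0.14 (SE 0.06) did not pass (edgeR adjusted p = 0.087). Atp5a1, for the alpha subunit, was at 503, 480 and 472 CPM and at 383, 395 and 409 CPM (edgeR log2 fold change -0.29 ± 0.07 SE, adjusted p = 0.0023).

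The membrane subunit gene Atp5k (ENSMUSG00000050856.12, chr5:108433244-108434448), for subunit e, was at 30.5, 31.9 and 30.8 CPM in DMSO and 16.4, 19.3 and 21.3 CPM with erastin. The groups were far apart, with a log2 fold change of -0.71 (SE 0.13, edgeR adjusted p = 0.00049). Its transcript of 371 nt is among the shortest, and with the offset it was -0.25 and did not pass (edgeR adjusted p = 0.15, 1.2e-05 to 0.15 across the alternatives tried). Atp5j2, for subunit f, was at 75.2, 84.5 and 79.0 CPM in DMSO and 56.3, 57.8 and 61.8 CPM with erastin (edgeR log2 fold change -0.44 ± 0.09 SE, adjusted p = 0.00091). Atp5d, for the delta subunit of the rotor stalk, was at 134, 134 and 152 CPM and at 101, 117 and 90.0 CPM (edgeR log2 fold change -0.45 ± 0.10 SE, adjusted p = 0.0020).

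Atp5a1, Atp5j2 and Atp5d were the 3 complex V genes that also passed as lower with the offset. With the shortest principal transcript in place of the longest, the offset ended the Atp5d call (edgeR adjusted p = 0.069). Without DMSO replicate 2, 5 of the 17 genes were called. Calls over all genes also fell when a library was left out, from 6028 to between 4802 and 5809. Atp5j shares exon sequence on the opposite strand with Gabpa, which encodes the DNA-binding subunit of GABP. Atp5j fell by 0.29 (SE 0.09) and Gabpa rose by 0.51 (SE 0.09) on the log2 scale. The Atp5j call was lost with the offset, at -0.088 (edgeR adjusted p = 0.48), but not with the offset from the shortest principal transcript (-0.43, edgeR adjusted p = 0.0016). The strand limit given for Ndufb5 applies here.

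The c subunit is encoded by 3 genes that give the same mature protein with different import sequences. Atp5g2 was at 17.4, 22.6 and 20.6 CPM in DMSO and 10.7, 15.4 and 14.4 CPM with erastin (edgeR log2 fold change -0.59 ± 0.18 SE, adjusted p = 0.014). Atp5g1 was at 44.7, 35 and 39.9 CPM and at 48.0, 46.4 and 45.5 CPM (edgeR log2 fold change 0.23 ± 0.11 SE, adjusted p = 0.10), and Atp5g3 at 110, 107 and 109 CPM and at 113, 102 and 110 CPM (edgeR log2 fold change -0.01 ± 0.08 SE, adjusted p = 0.94). Atp5g2 was thus the 1 family member that passed without the offset. With the offset Atp5g2 did not pass (log2 fold change -0.09, edgeR adjusted p = 0.72, 0.0075 to 0.72 across the alternatives tried). Atp5g1 was at 0.12 with the offset (edgeR adjusted p = 0.39). With the offset from the shortest principal transcript, 596 nt against 4715 nt for the longest, Atp5g1 passed as higher, at 0.49 (edgeR adjusted p = 0.0016). Reads in the shared coding sequence cannot be assigned with certainty, since the treatment of reads with several matches is not given. The same holds for subunit genes with near-identical processed pseudogenes.

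Subunits encoded in mtDNA were set beside the nuclear ones. Erastin libraries had 5 of the 12 tested mtDNA genes higher (41.7%, beside 21.6% of all genes) and 0 lower (0%, beside 21.5%). The median log2 fold change was 0.25. Without erastin replicate 1 that median was 0.16, and with the offset from the shortest principal transcript it was 0.084. mt-Nd4, for a proton-pumping subunit of complex I, was at 175, 176 and 178 CPM in DMSO and 296, 236 and 210 CPM with erastin (edgeR log2 fold change 0.49 ± 0.10 SE, adjusted p = 0.0014). mt-Nd2, mt-Nd5, mt-Cytb and mt-Co1 had log2 fold changes of 0.43, 0.37, 0.29 and 0.21. With the length offset these 5 genes did not pass, at 0.28 for mt-Nd4, 0.24 for mt-Nd2, 0.12 for mt-Nd5, 0.097 for mt-Cytb and 0.0053 for mt-Co1 (edgeR adjusted p = 0.057 to 0.97). In all these genes erastin replicate 1 was the highest library. Without it 2 of the 12 genes were called, mt-Nd4 as higher (0.34) and mt-Nd1 as lower (-0.29). In that fit 4802 of all 14278 genes tested were called. With the length offset the 1 gene called was mt-Nd1, which encodes another complex I subunit, as lower (-0.38); it was at -0.18 and did not pass without the offset.

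The 13 mtDNA genes summed to 2950, 2816 and 2979 CPM in DMSO and 3896, 3175 and 3118 CPM with erastin. Their ratio to the summed nuclear subunits was 0.440, 0.430 and 0.475 in DMSO and 0.706, 0.554 and 0.546 with erastin, so that every erastin library was above every DMSO library, erastin replicate 1 most of all. These are shares of the same RNA pool, and the number of mtDNA copies was not measured. Most of the 13-gene sum came from mt-Co1, mt-Cytb, mt-Nd1, mt-Nd5, mt-Nd2 and mt-Nd4. In DMSO these averaged from 934 CPM for mt-Co1 down to 176 CPM for mt-Nd4. Each other mtDNA gene averaged at most 16.8 CPM in either group, with mt-Co2 at 12.3 and mt-Co3 at 10.8 CPM in DMSO. Why those genes were so low was not tested.

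**Figure D4:**
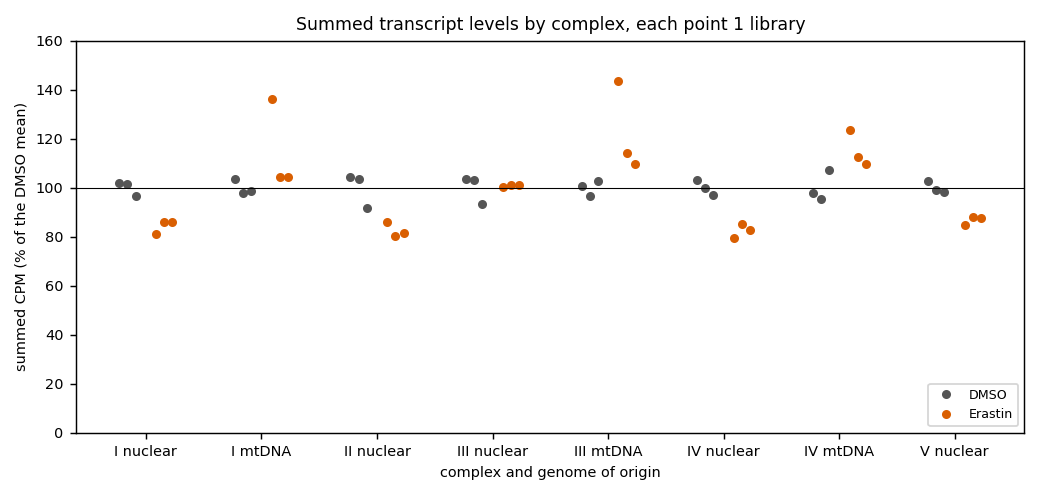
Summed CPM of the nuclear-encoded and mtDNA-encoded genes of each complex in each library (points), as a percentage of the DMSO mean (vertical axis, from 0). The nuclear sums of complexes I, II, IV and V lie below DMSO in the 3 erastin libraries. That of complex III overlaps, while the mtDNA sums of complexes I, III and IV lie above. Most of the mtDNA complex IV sum is mt-Co1, and mtDNA complex V, at about 10 CPM, is not drawn.

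Other genes that serve the chain were counted from lists chosen by function. Of 43 tested assembly factors outside the Ndufaf group, 5 rose (11.6%, beside 21.6% of all genes) and 9 fell (20.9%, beside 21.5%), with a median log2 fold change of -0.04. The share that fell was near that of all genes. Without erastin replicate 1, 7 were called, beside 4802 of all 14278 genes tested. Pet100, a complex IV assembly factor, was at 13.8, 12.4 and 8.17 CPM in DMSO and 6.19, 5.15 and 6.17 CPM with erastin (edgeR log2 fold change -0.97 ± 0.24 SE, adjusted p = 0.0038). Sco1, which delivers copper to complex IV, rose by 0.59 (SE 0.15), and Coa3, which acts early in the making of complex IV, fell by 0.40 (SE 0.11). The Coa3 call was lost with the length offset (edgeR adjusted p = 0.074, 0.0031 to 0.092 across the alternatives tried).

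Of 18 tested regulators of mitochondrial biogenesis, 6 rose (33.3%, beside 21.6% of all genes) and 2 fell (11.1%, beside 21.5%), with a median of 0.25. That median was 0.16 without DMSO replicate 2 and 0.38 without DMSO replicate 3. Without erastin replicate 1, 4 of the regulators were called, beside 4802 of all 14278 genes tested. Tfam, which packages mtDNA and starts its transcription, was at 23.2, 19.3 and 15.0 CPM in DMSO and 38.0, 34.4 and 46.7 CPM with erastin. The groups did not overlap, and the log2 fold change was 1.05 (SE 0.16, edgeR adjusted p = 9.0e-05). Gabpa was at 60.7, 61.7 and 51.7 CPM and at 85.6, 81.5 and 81.6 CPM (edgeR log2 fold change 0.51 ± 0.09 SE, adjusted p = 0.00040). Lrpprc, which stabilises mtDNA-encoded mRNAs, rose by 0.36 (SE 0.08).

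Of 13 coenzyme Q synthesis genes, 2 rose (15.4%, beside 21.6% of all genes) and 0 fell (beside 21.5%). Those that rose were Coq5, by 0.75 (SE 0.16), and Pdss2, by 0.68 (SE 0.26). The Pdss2 call was lost in 7 of 17 alternatives, among them 5 of the 6 that left out a library, and Coq5 kept its call in all 17. Among 17 genes of the TCA cycle and pyruvate dehydrogenase, 4 rose (23.5%, near the 21.6% of all genes) and 6 fell (35.3%, beside 21.5%), with a median of -0.07. Without erastin replicate 2, 6 were called, and the median was -0.033 without erastin replicate 1. Fits without a library called 4802 to 5809 of all genes, beside 6028 with all libraries. Dld, the dehydrogenase subunit shared by several 2-oxoacid complexes, was at 59.1, 50.1 and 59.1 CPM in DMSO and 110, 114 and 104 CPM with erastin (edgeR log2 fold change 0.96 ± 0.09 SE, adjusted p = 1.0e-06). Ogdh, the first subunit of the 2-oxoglutarate complex, fell by 0.49 (SE 0.09), and Pdhx, which tethers Dld in the pyruvate complex, rose by 0.66 (SE 0.14).

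Of 17 genes for outer membrane channels, protein import and cristae structure, 7 rose (41.2%, beside 21.6% of all genes). In the same list 2 fell (11.8%, beside 21.5%), and the median was 0.22. Vdac3, a voltage-dependent anion channel, was at 36.9, 35.8 and 35.1 CPM in DMSO and 63.2, 59.9 and 51.6 CPM with erastin. The groups were far apart (edgeR log2 fold change 0.70 ± 0.10 SE, adjusted p = 7.1e-05). The import genes Timm17a and Timm44 each rose by 0.59 (SE 0.09 and 0.11).

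Ribosomal protein genes, which are also short and abundant, were counted by symbol. Of 87 tested cytosolic ones, 39 were lower (44.8%, beside 21.5% of all genes) and 2 higher (2.3%, beside 21.6%). Their median log2 fold change was -0.20. Without erastin replicate 1, 25 of them were called in either direction, beside 4802 of all 14278 genes tested. Of 76 mitochondrial ones 12 rose (15.8%) and 11 fell (14.5%), both below the shares of all genes (median -0.04). The differences between these lists and the respiratory subunits were not tested.

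**Figure D5:**
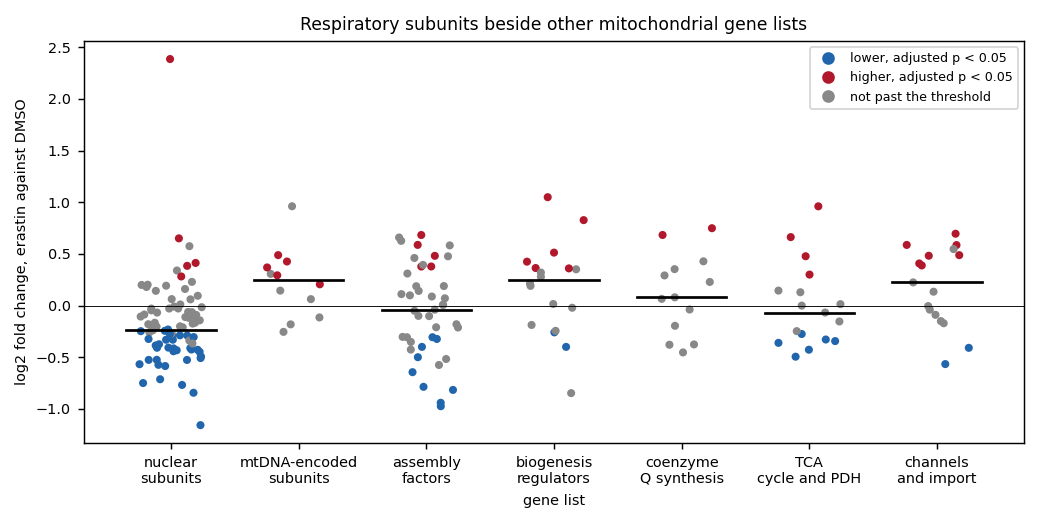
Log2 fold change of each tested gene (points, coloured by call; bars are medians; horizontal spread within a list has no meaning) for the nuclear subunits and the 6 other mitochondrial lists. Medians were -0.23 for the nuclear subunits, 0.25 for mtDNA-encoded subunits and for regulators, and 0.22 for channels and import.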

How the data were processed

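Total RNA depleted of ribosomal RNA was fragmented by heat, made into Ion Total RNA-seq libraries, amplified by PCR, selected for short fragments and sequenced on an Ion Proton, per the labels' protocols. The deposited table holds whole-number read counts per gene, not normalized by the authors, for 6 libraries, with 0 unused columns. Per the submitters' processing notes, HTSeq 0.9.1, SAMtools and the build mm10 were used; the aligner, annotation, strand setting and treatment of reads with several matches are not given in the sources used here. Ensembl identifiers without version were matched to GENCODE M21 (GRCm38, the same assembly as mm10) for symbols, positions, lengths and GC content, and 42462 of 43346 rows (98.0%) had a symbol. Rps6k kinases were left out of the ribosomal protein genes.

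Genes were kept by filterByExpr (minimum count 10, total 15) in edgeR 4.0.16 under R 4.3.3, which left 14000. Counts were scaled by TMM and tested with the edgeR quasi-likelihood test with treatment as the only term; the threshold was a Benjamini-Hochberg adjusted p of 0.05 over all genes tested. CPM are counts scaled by TMM library sizes. The offset for GC content and length was fitted with mgcv 1.9.3. The biological coefficient of variation was 15.1%. Chi-square per degree of freedom between libraries, over genes with 20 reads or more, was 11.0 to 19.2 inside a group and 78.0 to 123 across groups, so each library was kept as 1 replicate. The precision limit of 3 counts covers counting error only, as PCR reads without molecular identifiers are not independent molecules. The procedure was tested on simulated data.

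The genes, lists and tests were chosen with earlier results of these data known. Named genes are, per complex, up to 3 lower and 3 higher with the smallest p among those past the threshold, the 4 Sdh genes, Cyc1, Cycs, Uqcrfs1 and the paralog families. The values of 1 gene that the rule names are not reported here. The first 3 by p of each functional list were also named; Ndufv2, Ndufs8, Ndufb5, Ndufaf4, Atp5a1, Atp5b and Atp5j were added after their values were seen. Alternatives tried were RLE, upper-quartile and total-count scaling, other filters, a replicate block, the offset with and without that block, thinning to the smallest library, DESeq2 1.42.0, an adjusted p under 0.01, glmTreat against 0.5, and leaving out each library. The offset with the shortest principal transcript was added after seeing the data. An adjusted p under 0.01 and glmTreat were applied to counts of genes only. The alternatives and ranges given for single genes leave them out.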

Additional observations from a re-analysis of the deposited data

How the results depend on the processing

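Of 48 named genes tested, 24 kept their direction and side of the threshold in all 17 alternatives and 5 (Sdhb, Atp5g3, Cox4i2, Cox6b1 and Cox8a) changed sign in at least 1. Of the 36 subunits that were lower 23, and of the 5 that were higher 3, were called in all 6 fits that left out a library. Counts of the lowest genes, such as Cox4i2 and Atp5l at about 1 to 2 CPM, limit what could be detected. The labels do not say whether equal replicate numbers mark paired libraries. Deviations of equally numbered libraries correlated at -0.0096 to 0.060, and those of differently numbered ones at -0.067 to 0.054. With so few libraries these values gave no clear sign of pairing and cannot exclude it. With the replicate block 37 of the 41 called subunits were also called, 2 Ndufaf factors passed, and the median of all genes was 0.0017.

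With the GC and length offset, calls were made for 26 subunits, 20 subunits lower, 9 in complex I, 3 in complex V, 1 mtDNA gene and 21 cytosolic ribosomal genes. Medians were -0.085 for subunits, -0.11 for complex I, 0.074 for Ndufaf factors, 0.24 for complex III with Cycs, -0.072 for complex IV, -0.091 for complex V and 0.030 for mitochondrial ribosomal genes. Log2 fold changes were 0.061 for Sdhb, 0.11 for Atp5g3, 0.16 for Cox6b1 and 0.055 for Cox8a. With the offset and the replicate block together, calls were made for 21 subunits lower, 4 in complex V, 2 mtDNA genes and 23 cytosolic ribosomal genes. Medians were -0.088 for subunits, -0.10 for complex I, 0.074 for Ndufaf factors, 0.24 for complex III with Cycs, -0.076 for complex IV, -0.093 for complex V, 0.040 for mitochondrial ribosomal genes and 0.0030 for all genes. Log2 fold changes were 0.063 for Sdhb, 0.11 for Atp5g3, 0.035 for Cox4i2, 0.15 for Cox6b1 and 0.060 for Cox8a. With the offset from the shortest principal transcript, calls were made for 27 subunits, 20 subunits lower, 8 in complex I, 4 in complex V, 1 mtDNA gene and 21 cytosolic ribosomal genes. Medians were -0.026 for subunits, -0.018 for complex I, 0.059 for Ndufaf factors, 0.27 for complex III with Cycs, -0.080 for complex IV, -0.13 for complex V and 0.035 for mitochondrial ribosomal genes. Log2 fold changes were 0.039 for Sdhb, 0.083 for Atp5g3, 0.13 for Cox6b1 and 0.017 for Cox8a. At an adjusted p under 0.01, calls were made for 25 subunits, 3 subunits higher, 22 subunits lower, 9 in complex I, 0 Ndufaf factors, 5 in complex V, 3 mtDNA genes, 3 assembly factors, 4 regulators, 1 coenzyme Q gene, 6 TCA genes and 26 cytosolic ribosomal genes. With glmTreat against a change of 0.5 on the log2 scale, calls were made for 2110 of all genes, 958 of all genes higher, 1152 of all genes lower, 3 subunits, 1 subunit higher, 2 subunits lower, 1 in complex I, 0 Ndufaf factors, 0 in complex II, 0 in complex III with Cycs, 2 in complex IV, 0 in complex V, 0 mtDNA genes, 0 assembly factors, 1 regulator, 0 coenzyme Q genes, 1 TCA gene, 0 channel and import genes, 5 mitochondrial ribosomal genes and 0 cytosolic ribosomal genes. Without a filter on low counts, medians were 0.0095 for Ndufaf factors and 0.017 for all genes. Log2 fold changes were 0.010 for Atp5g3 and 0.0017 for Cox6b1. After thinning to the smallest library, calls were made for 2 Ndufaf factors. With total-count scaling, calls were made for 2 Ndufaf factors. Medians were 0.056 for Ndufaf factors, 0.081 for complex III with Cycs, -0.21 for complex IV, -0.18 for complex V, 0.022 for assembly factors, 0.028 for mitochondrial ribosomal genes and 0.065 for all genes. Log2 fold changes were 0.057 for Atp5g3 and 0.047 for Cox6b1. With upper-quartile factors, calls were made for 3 subunits higher and 1 coenzyme Q gene. Medians were -0.037 for complex III with Cycs and -0.30 for complex V. The log2 ratio of summed CPM was -0.023 for complex III with Cycs.

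Leaving out each library in turn gave ranges of 3 to 6 subunits higher, 9 to 14 in complex I, 0 to 3 Ndufaf factors, 5 to 10 in complex V, 2 to 5 mtDNA genes, 7 to 11 assembly factors, 4 to 7 regulators, 1 to 3 coenzyme Q genes, 6 to 10 TCA genes and 25 to 46 cytosolic ribosomal genes called. Over all genes tested 4802 to 5809 were called in these fits. Medians ranged over -0.056 to 0.080 for Ndufaf factors, -0.050 to 0.072 for complex III with Cycs, -0.38 to -0.26 for complex IV, -0.29 to -0.18 for complex V, -0.074 to 0.023 for mitochondrial ribosomal genes and -0.014 to 0.00023 for all genes. Log2 fold changes ranged over -0.18 to 0.0014 for Sdhb, -0.044 to 0.033 for Atp5g3 and -0.11 to 0.045 for Cox6b1. The log2 ratio of summed CPM ranged over -0.019 to 0.059 for complex III with Cycs. For the values in these paragraphs the cause of the change was not tested, except that stricter thresholds lower the counts by construction.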
